A study of Mus musculus with 36 samples.

Results

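The genes described here are 6 genes of MHC class II antigen presentation, Cd74, H2-Aa, H2-Ab1, H2-Eb1, H2-DMa and Ciita. They were read by 10 probe sets, out of 12394 genes and 22690 probe sets on 36 Affymetrix arrays of mouse cells. All probe sets that carry 1 of the 6 gene symbols were taken. The group was chosen by measured values, namely log2 intensities on these arrays that were higher in untreated knockout cells and moved little with interferon. The untreated knockout against wild type, and every change from 0 h, are therefore described without a test.

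The study asked how the loss of Usp18, an enzyme that removes ISG15 from proteins and blocks signalling at the type I interferon receptor, alters microglia, the resident macrophages of the brain. Primary microglia came from wild-type (WT) mice, from Usp18 knockout (KO) mice and from Usp18_C61A mice, whose Usp18 carries a replacement of the catalytic cysteine. BV-2 cells, an immortalised mouse microglial line, received a control siRNA or an siRNA against Usp18. All cells were grown in the same medium with fetal calf serum. They were studied without treatment (0 h) and after 6 h and 24 h with IFN-b at 500 U/ml. With 2 biological replicates each this made 18 groups: KO with WT in deposition run 1, the BV-2 cells in run 2, and C61A with a further set of WT in run 3. The runs are stretches of the deposition order. The labels do not say what they stand for, give no age or strain for the mice, and do not say whether arrays of 1 replicate number share a culture.

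MHC class II molecules are pairs of an alpha and a beta chain that show peptides from engulfed material to CD4+ T cells. In mice H2-Aa pairs with H2-Ab1, and H2-Eb1 is the beta chain of the second pair. Cd74, the invariant chain, escorts the new pairs to the endosome and plugs their groove, and H2-DMa is the alpha chain of the editor that swaps the remnant of Cd74 for a peptide. Ciita is the transactivator that binds no DNA itself but is recruited by factors sitting on the X and Y boxes of class II promoters. Interferon-gamma is its classic inducer, and microglia of the healthy brain carry little class II.

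H2-Aa, H2-Ab1 and H2-Eb1 are next neighbours among the protein-coding genes of chromosome 17 in RefSeq order. H2-DMa lies on the same chromosome with 7 genes between it and H2-Ab1. Ciita and Cd74 lie on other chromosomes. RefSeq promoter windows (GRCm38.p6) were at hand for 3 of the 6 genes. The X-box core GCAAC followed within 50 bases by the Y-box core GATTGG, read on both strands over the 250 bases before the start, occurred in 221 of 32851 windows (0.673%). GCAAC alone was in 29.9% of the windows and GATTGG alone in 14.6%, and the motifs do not overlap. The pair occurred in H2-Eb1 and H2-Aa and in neither window of H2-DMa, and in 3 of 5 other class II genes with a window (H2-Oa, H2-Ob and H2-Eb2). These letters were chosen after the sequences had been seen, and a match is a description of the sequence. The stretches of the 2 members and of H2-Oa, an inhibitor chain that turns up in the results, are shown with the 2 cores in capitals, to let the shared layout be seen.
H2-Eb1, chr17:34305746-34305827, plus strand: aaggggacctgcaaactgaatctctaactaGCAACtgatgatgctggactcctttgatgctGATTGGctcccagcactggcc
H2-Aa, chr17:34287852-34287934, minus strand: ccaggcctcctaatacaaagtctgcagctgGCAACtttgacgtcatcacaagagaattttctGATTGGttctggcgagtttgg
H2-Oa, chr17:34092273-34092355, plus strand: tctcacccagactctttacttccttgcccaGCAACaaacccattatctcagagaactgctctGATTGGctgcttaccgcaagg
The cores were 26 bases apart in H2-Eb1 and 27 bases apart in H2-Aa and H2-Oa. The first base of GCAAC lay 91, 81 and 76 bases before the start of H2-Eb1, H2-Aa and H2-Oa.

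All values are the deposited log2 intensities, and differences are on that log2 scale with the standard error (SE) of the fit. Each gene has 1 estimate of spread, shared by all groups of its fit, so an SE is not the spread of the compared arrays alone. Array medians ran from 5.59 to 5.83. Usp18 itself read 3.77 to 6.42 on the 6 KO arrays, and whether its probe set lies in the deleted part is not known here. In the fit it was lower in KO by 6.35 ± 0.91 at 6 h (limma adjusted p = 0.00226), but the siRNA moved it by only -0.34 ± 0.45 at 24 h (limma adjusted p = 0.633). There were 3 arrays that went against the rest of their group: untreated WT replicate 1 of run 3, where Usp18 stood at 12.97 against 9.31 on its partner, C61A at 6 h replicate 2 (10.71 against 13.04), and the Usp18 siRNA array at 6 h replicate 2, where Ighm, read at 4.51 to 5.24 on the other BV-2 arrays, stood at 8.27. No contrast between KO and WT uses any of them directly. The arrays measure bulk RNA, so that more cells with class II and more class II RNA per cell cannot be told apart.

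In untreated cells, Cd74 read 8.97 and 8.70 on the KO arrays and 6.24 and 6.86 on the WT arrays of run 1. The 2 groups lay far apart, with a difference of 2.28 ± 0.41 (4.87-fold). The alpha chain H2-Aa read 7.68 and 6.90 in KO against 4.10 and 4.25 in WT, a difference of 3.11 ± 0.86 (8.66-fold). Its beta partner H2-Ab1 read 6.31 and 5.65 against 4.03 and 4.45, a difference of 1.74 ± 0.38. The other beta chain, H2-Eb1, read 6.50 and 6.03 against 4.67 and 4.80, a difference of 1.53 ± 0.22. The editor chain H2-DMa read 5.67 and 5.48 against 5.01 and 5.09, a smaller step of 0.53 ± 0.25. None of these 5 genes overlapped between the genotypes, and 25.5% of all genes tested were higher in KO without overlap. They were chosen on this contrast, in which 16.8% of all genes were called, so the count is a description only. Dimmer probe sets of the chains pointed the same way, with 1.05 ± 0.29 for a second H2-Aa probe set and 1.19 ± 0.33 and 0.64 ± 0.31 for 2 further H2-Ab1 probe sets. The H2-Aa and H2-Ab1 probe sets used are of the kinds that can also bind near-identical transcripts, so that their readings cannot be ascribed to 1 gene with certainty.

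Ciita, the regulator, stayed dim. Its 2 probe sets ranged from 2.84 to 4.28 over all 36 arrays and never reached an array median. In untreated cells the second probe set read 4.14 and 3.70 in KO against 3.53 and 3.54 in WT, and the first 3.82 and 3.46 against 3.36 and 3.72. In the fit of all 22690 probe sets, neither was called between KO and WT at 6 h (-0.22 ± 0.21, limma adjusted p = 0.668, and -0.15 ± 0.24, adjusted p = 0.827). At 24 h the estimates were 0.36 ± 0.21 (adjusted p = 0.309) and -0.30 ± 0.24 (adjusted p = 0.503). Values this low are near the floor of the array, and a change in Ciita RNA could pass unseen.

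**Figure D1:**
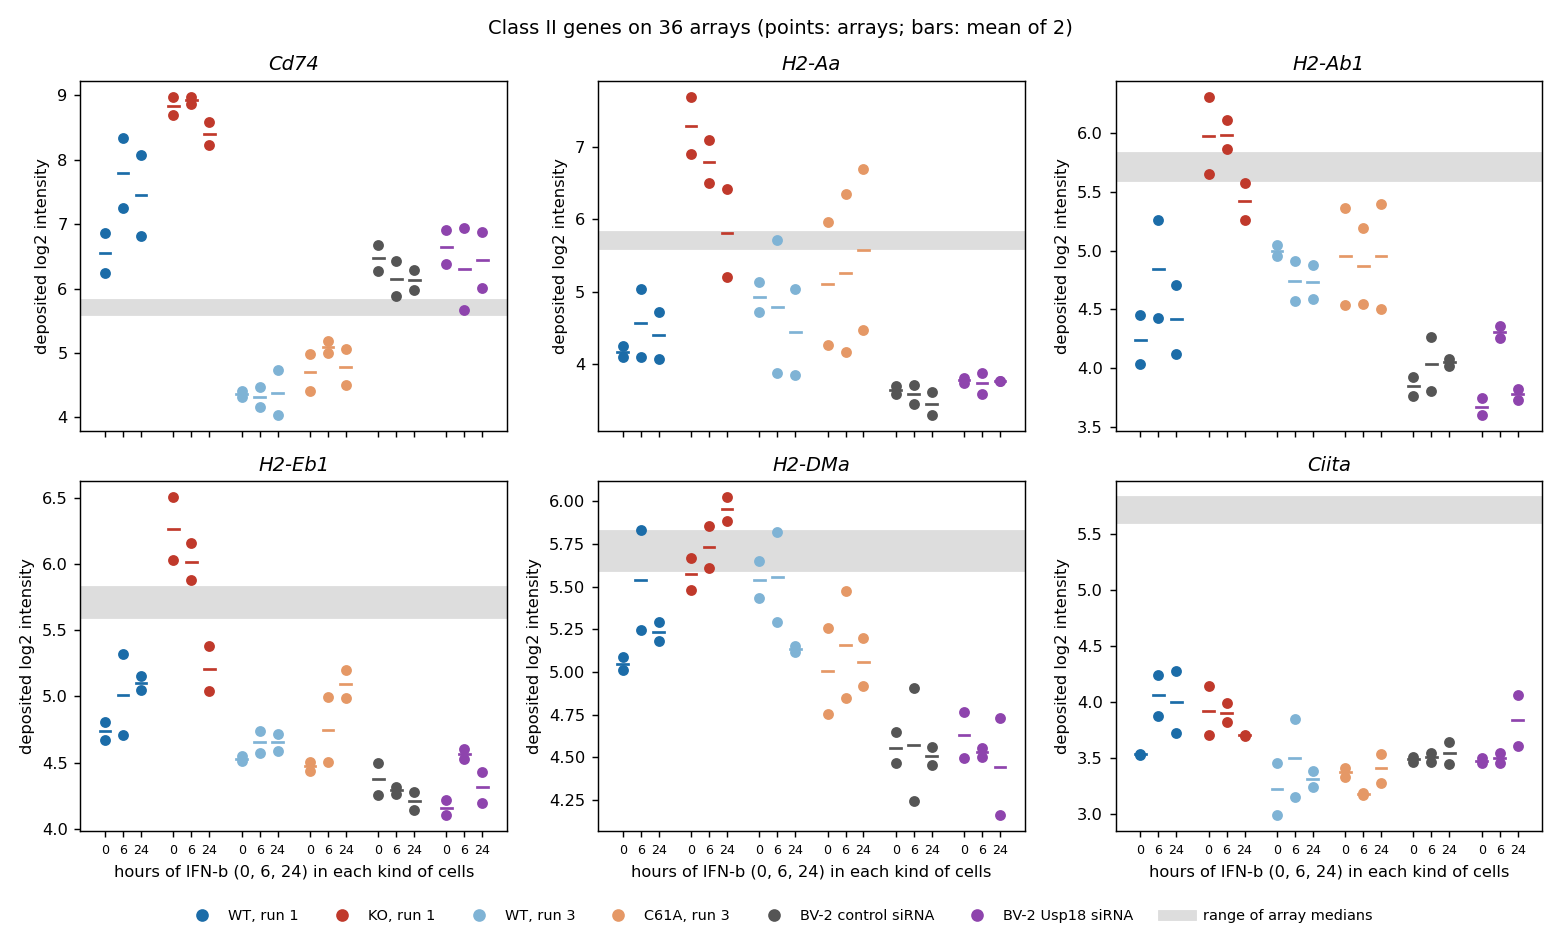
Deposited log2 intensity (vertical axes) of the 6 class II genes on 36 arrays, with hours of IFN-b along the horizontal axes for each kind of cells; points are arrays, short bars the mean of 2, and the grey band the range of array medians (5.59 to 5.83). Cd74 of the KO arrays (8.22 to 8.97) stands highest, run 3 microglia lie at 4.04 to 5.19, and Ciita (here its second probe set) stays under the band everywhere.

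The order of Cd74 over the 18 groups ran from KO at 6 h (mean 8.92), 0 h (8.83) and 24 h (8.40) through WT of run 1 at 6 h (7.80) and 24 h (7.45) to the BV-2 groups and untreated WT of run 1 (6.55). All C61A and run 3 WT groups came last. Arrays of neighbours in that order overlapped, among others, for KO at 0 h and 6 h, between KO at 24 h and WT at 6 h, and throughout the run 3 microglia (4.04 to 5.19). A gap without arrays separated the run 3 microglia from the lowest BV-2 array at 5.67. H2-Aa also had its 3 highest group means in KO (7.29, 6.79 and 5.81), but the C61A groups followed (5.58, 5.26 and 5.11), each with 1 high and 1 low array. The 6 BV-2 groups came last, at 3.46 to 3.78.

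The response to IFN-b was part of what the genes were chosen by, and its values are given as they stand. In WT of run 1, Cd74 rose from 6.24 and 6.86 at 0 h to 7.25 and 8.34 at 6 h and stood at 6.82 and 8.08 at 24 h. Both arrays were higher at 6 h than either untreated array, a difference of 1.25 ± 0.41 given as a description. H2-DMa went from 5.01 and 5.09 to 5.25 and 5.83, also without overlap. The share of all genes without overlap was not counted for this step, so the separation of these arrays has no baseline here. The chains moved by 0.28 ± 0.22 (H2-Eb1), 0.60 ± 0.38 (H2-Ab1) and 0.40 ± 0.86 (H2-Aa), with overlapping arrays. In WT of run 3 the same step gave -0.04 ± 0.41 for Cd74 (4.31 and 4.41 against 4.48 and 4.16). That comparison rests on an untreated array whose interferon genes were already high. In KO the 6 h step was within 0.5 of 0 for all 5 genes, with Cd74 at 0.09 ± 0.41. The KO step from 0 h to 24 h was larger, at -1.48 ± 0.86 for H2-Aa and -1.055 ± 0.22 for H2-Eb1. It was -0.56 ± 0.38 for H2-Ab1 and -0.43 ± 0.41 for Cd74, while H2-DMa went up by 0.38 ± 0.25.

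A difference between KO and WT under IFN-b is the untreated difference plus the KO response minus the WT response. The genes were chosen by their untreated difference and small responses. The p-values of KO against WT at 6 h and 24 h, and of 24 h against 6 h, are therefore given as the output of the fit over all genes. They are no independent evidence that class II is higher in KO, and the arrays may also come from the same cultures as the untreated ones. At 6 h H2-Eb1 read 6.16 and 5.88 in KO and 4.71 and 5.32 in WT. The difference was 1.01 ± 0.22 (2.01-fold, limma adjusted p = 0.0169), and both KO arrays lay above both WT arrays. This was 1 of 5 genes tested, where 8.32% of all genes were called and 2.88% were called higher. The 5 genes entered the test by reading above the array median on at least 2 of the 24 microglia arrays. H2-Eb1 did so on 4 arrays and H2-Ab1 on 3, all of them KO, H2-DMa on 5 (3 of them KO), H2-Aa on 8 (5 KO) and Cd74 on 12. Genes that pass through the group where they are high had to differ, and their number supports nothing. Among all 22690 probe sets, with no such filter, H2-Eb1 was called higher as well (limma adjusted p = 0.0220, with 1.32% of probe sets called higher). Without KO replicate 1 the estimate was 0.86 (adjusted p = 0.192), and without WT replicate 1 it was 0.70 (adjusted p = 0.144).

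The other members were not called at 6 h in this fit. H2-Aa read 7.09 and 6.49 in KO against 4.10 and 5.04 in WT, a difference of 2.22 ± 0.86 (4.66-fold, limma adjusted p = 0.124). H2-Ab1 read 6.11 and 5.86 against 4.43 and 5.26, a difference of 1.15 ± 0.38 (adjusted p = 0.0748). With culture as a random block H2-Ab1 was called (adjusted p = 0.0359), and without WT replicate 1 its estimate was 0.73 (adjusted p = 0.404). Cd74 read 8.97 and 8.87 against 7.25 and 8.34, a difference of 1.12 ± 0.41 (adjusted p = 0.105). It was 0.58 without WT replicate 1 and 1.67 without WT replicate 2, not called in either case. H2-DMa was nearly level, 5.61 and 5.85 against 5.25 and 5.83 (0.19 ± 0.25, adjusted p = 0.702). The arrays of Cd74 and of the 3 chains did not overlap, with KO higher in 4 of 5 genes, and 20% of all genes were higher in KO without overlap. In WT, replicate 2 stood above replicate 1 for all 5 genes.

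At 24 h the called gene was H2-DMa. It read 5.89 and 6.02 in KO and 5.18 and 5.29 in WT, higher in KO by 0.72 ± 0.25 (1.65-fold, limma adjusted p = 0.0425), with 29.1% of all genes called in that contrast and 11.3% called higher. It was 1 of 5 members. The call was lost when any 1 of the 4 arrays was left out (0.65 to 0.79, adjusted p 0.109 to 0.170), and among all unfiltered probe sets (adjusted p = 0.0607). H2-Ab1 read 5.58 and 5.26 against 4.12 and 4.71 (1.00 ± 0.38, adjusted p = 0.0600), and was called with culture as a random block (adjusted p = 0.0243). Cd74 read 8.58 and 8.22 against 6.82 and 8.08 (0.95 ± 0.41, adjusted p = 0.0939). The Cd74 estimate was 0.32 without WT replicate 1 (adjusted p = 0.648) and 1.58 without WT replicate 2 (adjusted p = 0.0263). H2-Aa read 6.42 and 5.20 against 4.08 and 4.72 (1.41 ± 0.86, adjusted p = 0.238), or 0.80 without KO replicate 1. H2-Eb1, the gene called at 6 h, read 5.38 and 5.04 against 5.05 and 5.16, and its arrays overlapped (0.11 ± 0.22, adjusted p = 0.759). KO was higher without overlap in 4 of 5 genes, against 30.2% of all genes.

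**Figure D2:**
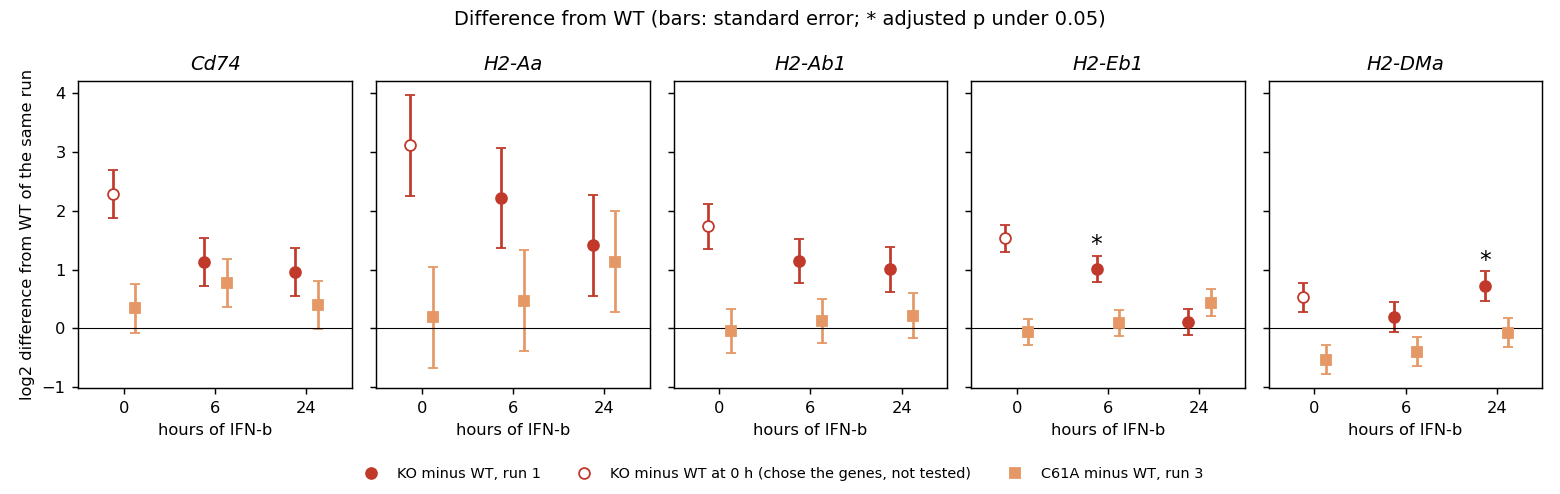
Log2 difference from WT of the same run (vertical axis) for 5 class II genes at 0, 6 and 24 h of IFN-b (horizontal axes); circles are KO, squares C61A, bars are 1 SE, and an asterisk marks limma adjusted p under 0.05. H2-Eb1 goes from 1.53 at 0 h to 0.11 at 24 h in KO while H2-DMa goes from 0.53 to 0.72; the C61A values lie between -0.53 and 1.13.

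Within KO, the chains stood lower at 24 h than at 6 h. H2-Eb1 went from 6.16 and 5.88 to 5.38 and 5.04, a difference of -0.81 ± 0.22 (limma adjusted p = 0.0587). H2-Aa gave -0.98 ± 0.86 (adjusted p = 0.613), H2-Ab1 -0.57 ± 0.38 (adjusted p = 0.471) and Cd74 -0.52 ± 0.41 (adjusted p = 0.562). H2-DMa went the other way by 0.22 ± 0.25 (adjusted p = 0.718). No member passed the limma test (0 of 5, 1 at an unadjusted p under 0.05), and 3.67% of all genes did. The arrays did not overlap in any of the 5 genes, 4 of them lower, where 17.5% of all genes were lower without overlap and 28.4% higher. When each culture was set against itself, taking equal replicate numbers as 1 culture, H2-Eb1 (limma adjusted p = 0.0152), H2-Ab1 (0.0303) and H2-Aa (0.0478) were called lower at 24 h. That reading rests on 2 KO cultures, and the labels do not state it. H2-Eb1 alone was called lower with culture as a random block (adjusted p = 0.00860), and also without the 3 doubted arrays (adjusted p = 0.0427).

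The same step in WT, averaged over both runs, ranged from -0.36 ± 0.18 (H2-DMa, limma adjusted p = 0.234) to 0.04 ± 0.16 (H2-Eb1, adjusted p = 0.904). No member was called (0 of 5, and 0 at an unadjusted p under 0.05), with 5.45% of all genes called. In C61A no member was called either (0 of 5, and 0 unadjusted, with 0.528% of all genes), and H2-Eb1 stood at 5.20 and 4.99 at 24 h against 4.50 and 4.99 at 6 h. Whether the KO and WT steps from 6 h to 24 h differ was not tested.

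C61A microglia hold a Usp18 protein without its enzyme activity, and no class II gene was called between them and WT of the same run. Untreated, Cd74 read 4.98 and 4.41 in C61A and 4.31 and 4.41 in WT of the same run (0.34 ± 0.41). H2-Eb1 read 4.44 and 4.51 against 4.55 and 4.51 (-0.06 ± 0.22), and H2-Ab1 5.36 and 4.54 against 4.95 and 5.04 (-0.05 ± 0.38). H2-DMa was the 1 gene at an unadjusted p under 0.05, at 5.26 and 4.75 against 5.43 and 5.65 (-0.53 ± 0.25, limma adjusted p = 1.00). In H2-DMa and H2-Eb1 both C61A arrays were lower than both WT arrays, as in 13.9% of all genes. The limma test called 0 of 5 members at 0 h (0.0126% of all genes called), 0 of 5 at 6 h (0.0126%; 0 unadjusted) and 0 of 5 at 24 h (0.0251%; 0 unadjusted). The largest estimates were 0.78 ± 0.41 for Cd74 at 6 h (adjusted p = 0.998) and 1.13 ± 0.86 for H2-Aa at 24 h (adjusted p = 0.797). Without overlap Cd74 was higher at 6 h and H2-Eb1 at 24 h (0.44 ± 0.22), as were 13.7% and 15.5% of all genes at those times. The SE of H2-Aa (0.86) and of Cd74 (0.41) leaves room at 6 h and 24 h for differences as large as those of KO. For Cd74 these were 1.12 and 0.95 in KO, against 0.78 and 0.40 in C61A. H2-Eb1 stood at 0.09 ± 0.22 and 0.44 ± 0.22 in C61A, against 1.01 and 0.11 in KO. H2-Ab1 and H2-DMa lay below their KO estimates at both times. Without the doubted arrays the C61A estimates were 0.29 (Cd74) and -0.64 (H2-DMa) at 0 h, and 0.68 (Cd74) and 1.56 (H2-Aa) at 6 h, none of them called.

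The KO effect was also set against the C61A effect directly, each relative to WT of its own run. At 6 h the difference between effects was 0.92 ± 0.32 for H2-Eb1 (limma adjusted p = 0.156), 1.02 ± 0.54 for H2-Ab1 (adjusted p = 0.338) and 0.35 ± 0.58 for Cd74 (adjusted p = 0.804). At 24 h the highest was 0.80 ± 0.35 for H2-DMa (adjusted p = 0.211), and H2-Eb1 turned to -0.33 ± 0.32 (adjusted p = 0.602). Of the 5 members, 0 were called at either time, 1 at an unadjusted p under 0.05 each, and 0.817% and 3.1% of all genes were called. Without the doubted arrays H2-Eb1 gave 1.16 (adjusted p = 0.191) and H2-Aa 0.66 (adjusted p = 0.834) at 6 h. The test shows neither a difference between the 2 alleles under IFN-b nor their equality.

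The replicates of 1 group often differed more than the groups did. In C61A, H2-Aa was high on replicate 1 at all 3 times (5.96, 6.35 and 6.70) and low on replicate 2 (4.27, 4.17 and 4.47). In WT of run 3 it was replicate 2 that was higher (5.13, 5.72 and 5.04 against 4.72, 3.88 and 3.86). Markers of astrocytes, another cell type of such cultures, moved with these pairs. The mean of 9 astrocyte markers was 8.74, 8.40 and 8.64 on C61A replicate 1 against 6.92, 5.66 and 6.70 on replicate 2. In WT of run 3 it was 8.47, 8.09 and 7.41 on replicate 2 against 6.89, 5.59 and 5.59 on replicate 1. The part of these cells in the H2-Aa readings was not tested. In KO the astrocyte mean was lower on replicate 1 (4.96, 5.16 and 4.90), the one with the higher H2-Aa, than on replicate 2 (6.07, 6.10 and 5.51). H2-Eb1 did not follow the H2-Aa pattern in C61A (4.44, 4.50 and 5.20 against 4.51, 4.99 and 4.99).

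**Figure D3:**
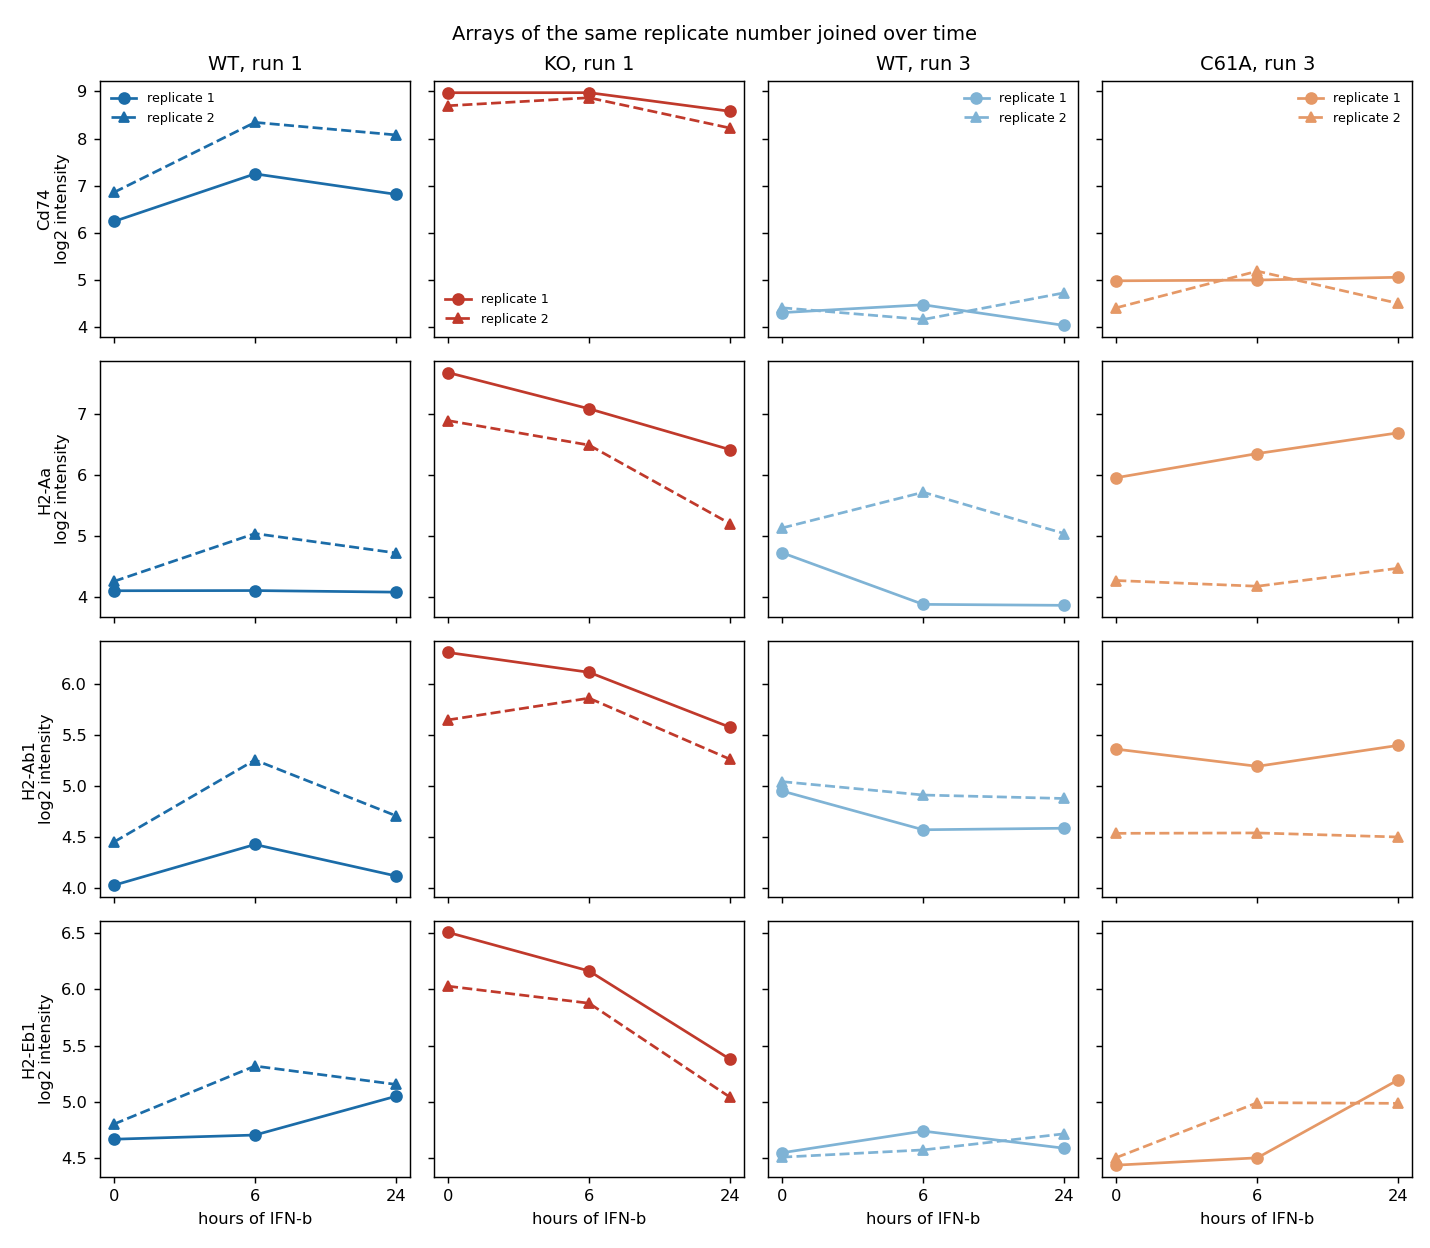
Deposited log2 intensity (vertical axes) of Cd74, H2-Aa, H2-Ab1 and H2-Eb1 at 0, 6 and 24 h of IFN-b (horizontal axes), with arrays of 1 replicate number joined; whether these share a culture is not stated in the labels. H2-Aa of C61A splits into 1 high line (5.96 to 6.70) and 1 low line (4.17 to 4.47), and in KO both lines of H2-Eb1 end lowest at 24 h (5.38 and 5.04).

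At 6 h and 24 h the 2 sets of WT microglia differed in Cd74 more than KO and WT did. At 6 h Cd74 was 4.48 and 4.16 in run 3 against 7.25 and 8.34 in run 1, lower by 3.48 ± 0.41 in run 3 (limma adjusted p = 4.1e-05). At 24 h it was 4.04 and 4.73 against 6.82 and 8.08 (-3.06 ± 0.41, adjusted p = 1.0e-04). The other 4 members were not called at either time, with H2-Eb1 at -0.36 ± 0.22 and -0.45 ± 0.22 and H2-Aa at 0.23 ± 0.86 and 0.05 ± 0.86. The share of all genes called between these WT sets was 30.9% at 6 h and 32.7% at 24 h, and 15.4% and 17.9% were called lower, so that 1 of 5 members is close to the share of all genes. What the runs differ in cannot be told apart from the cultures themselves. The mean of 8 border macrophage markers, for cells of the brain's coverings that carry Cd74, was 6.61 to 7.03 in WT of run 1 and 4.89 to 5.02 in run 3 at 6 h, and its part in the Cd74 level was not tested. Of these markers Cd163 and Lyve1 lay under the array median on all 24 microglia arrays. Stab1 passed it on 24, Pf4 on 22, Cd209f on 12, Mrc1 on 8, F13a1 on 7 and Cbr2 on 1.

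In BV-2 cells Cd74 was the only member to pass the array median. It read 5.67 to 6.94 on the 12 arrays, above the array median on 11. H2-Aa stayed at 3.30 to 3.88, H2-Eb1 at 4.10 to 4.60 and H2-DMa at 4.16 to 4.90, all under the array median, so that Cd74 alone was tested. Under the Usp18 siRNA, Cd74 read 6.91 and 6.38 at 0 h against 6.68 and 6.27 with the control siRNA (0.16 ± 0.44). It read 6.94 and 5.67 against 6.42 and 5.88 at 6 h (0.15 ± 0.44, or 0.79 without the doubted array) and 6.88 and 6.00 against 6.29 and 5.98 at 24 h (0.30 ± 0.44, limma adjusted p = 0.666). It was called at none of the 3 times (0 of 1 each, none at an unadjusted p under 0.05). Of all genes 0%, 0% and 5.35% were called by limma. Nor did it change from 6 h to 24 h by the limma test under either siRNA (-0.02 ± 0.44 and 0.14 ± 0.44; 0% and 0.223% of all genes called).

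Against WT microglia of both runs, BV-2 cells with the control siRNA were lower at 6 h in H2-DMa (-0.97 ± 0.22, limma adjusted p = 7.8e-04), H2-Ab1 (-0.76 ± 0.29, adjusted p = 0.0256) and H2-Eb1 (-0.55 ± 0.17, adjusted p = 0.00948). At 24 h they were lower in H2-DMa (-0.68 ± 0.22, adjusted p = 0.0126) and H2-Eb1 (-0.67 ± 0.17, adjusted p = 0.00239). These are 3 and 2 of 5 members, where 63.3% and 60.3% of all genes were called and 30.2% and 29.4% called lower. H2-Eb1 and H2-Ab1 lay under the array median on every array compared, as H2-DMa did at 24 h. H2-Eb1 and H2-Ab1 entered the fit through KO arrays alone, which are not compared here, so that their differences lie between dim readings. Cd74 did not pass (0.09 ± 0.38 and 0.22 ± 0.38), and its BV-2 arrays lay below the WT arrays of run 1 and above those of run 3 at both times. Leaving out 1 array changed the counts, to 0 at 6 h without control siRNA replicate 2, to 1 at 6 h without WT replicate 2 of run 1 (H2-DMa), and to 1 at 24 h without control siRNA replicate 2 (H2-Eb1). Cell line, run and siRNA differ together here and cannot be told apart.

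The other genes of the pathway were counted from lists by role. Between KO and WT, 8.32% of all genes tested were called at 6 h and 29.1% at 24 h, with 2.88% and 11.3% called higher. A single call in a list is therefore a description of that gene. Of 7 further chains and editors 3 were on the array and 2 were tested. H2-Oa, which with H2-Ob restrains the H2-DM editor, read 5.89 and 7.16 in KO at 24 h against 4.91 and 5.51 in WT. It was higher in KO by 1.31 ± 0.40 (limma adjusted p = 0.0238) and did not pass at 6 h (0.84 ± 0.40, adjusted p = 0.214). Of 7 promoter factors, all tested, Rfx5, a subunit of the X-box binding complex, was higher in KO at 24 h by 0.78 ± 0.20 (7.72 and 7.44 against 6.82 and 6.79, adjusted p = 0.0108), and 0 passed at 6 h. The median of these factors at 24 h was 0.09, against -0.07 for all genes. Of 7 tested genes of peptide supply and turnover (cathepsins and the like) 0 passed at 6 h or 24 h by limma, and Ctss, which trims Cd74, stood at 13.06 in KO and 12.99 in WT at 6 h.

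Upstream of Ciita, 8 of 10 genes of the interferon-gamma route were tested. At 24 h, 3 were higher in KO and 1 was lower, with a median of 0.77 against -0.07 for all genes, of which 29.1% were called and 11.3% called higher. Irf1, a transcription factor acting on the Ciita promoter, read 11.68 and 11.74 against 9.73 and 9.95 (1.87 ± 0.59, limma adjusted p = 0.0289). Jak2, a kinase of the interferon-gamma receptor, was higher by 1.70 ± 0.42 (adjusted p = 0.00892). Socs1, an inhibitor of Jak kinases, read 9.71 and 9.83 against 5.07 and 5.18 (4.65 ± 0.95, adjusted p = 0.00281). Ifngr1, a chain of the interferon-gamma receptor, was lower (-1.89 ± 0.41, adjusted p = 0.00401), and lower at 6 h too (-1.68 ± 0.41, adjusted p = 0.0251), where it was the only one of the list called. Ifng itself lay between 2.36 and 3.01 on all arrays. Under the Usp18 siRNA at 24 h, 4 of the 8 were higher, where 5.35% of all genes were called, among them Irf1 (2.76 ± 0.29, adjusted p = 0.00401) and Jak2 (2.17 ± 0.36, adjusted p = 0.0192), in cells whose Cd74 was not called.

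Class II and type I interferon genes were set side by side on each array. The mean of 8 interferon response genes (Irf7, Ifit1, Ifit3, Mx1, Oas3, Rsad2, Gbp2 and Cxcl10) was 12.23 to 12.54 on the untreated KO arrays, and the mean of the 5 tested class II genes was 6.55 to 7.03. WT arrays of run 1 at 6 h had a close interferon mean (12.14 to 12.37) but a class II mean of 5.15 to 5.96. WT arrays of run 3 at 6 h had 11.75 to 11.91 and 4.59 to 5.04. C61A arrays at 24 h reached 12.36 to 12.38, with class II at 4.68 to 5.51, and Usp18 siRNA cells at 24 h reached 11.58 to 12.36, with class II at 4.39 to 4.71. Every KO array at 0 h and 6 h lay above every other array in the class II mean. The untreated WT array of run 3 with high interferon genes (11.93) had a class II mean of 4.79, and its partner with 7.39 had 4.95. The class II genes were chosen in part for this pattern, so that it is a description.

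**Figure D4:**
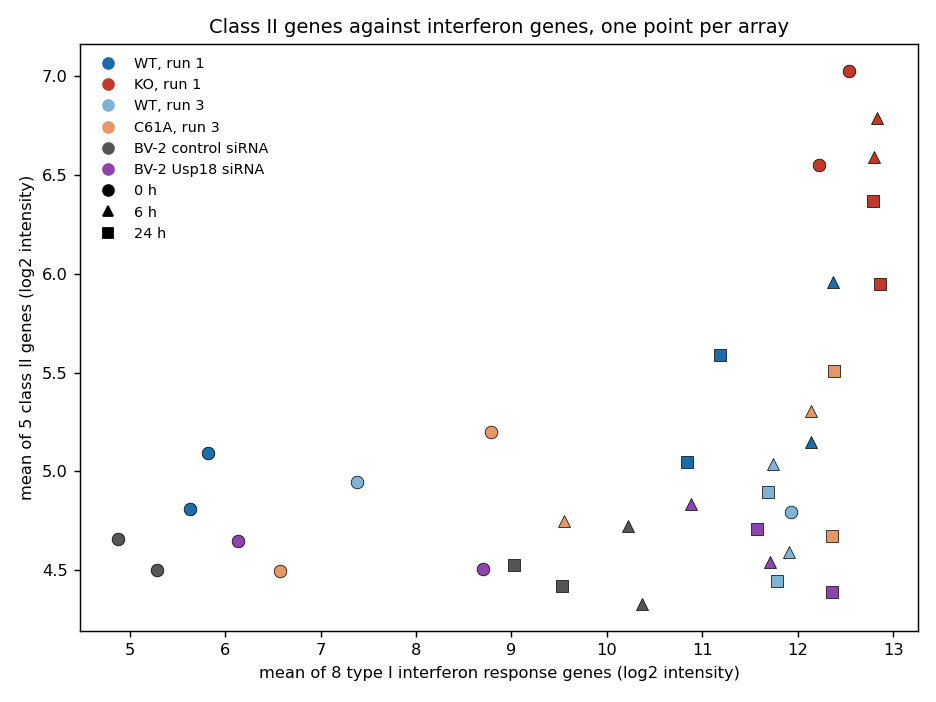
Mean log2 intensity of 5 class II genes (vertical axis) against the mean of 8 interferon response genes (horizontal axis), 1 point per array, with colours for the kind of cells and shapes for the hours of IFN-b. Arrays with interferon means above 11.5 span class II means from 4.39 to 7.03, and the highest of these are KO at 0 h and 6 h.

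Over the 24 microglia arrays, the 5 tested members followed one another to different degrees. H2-Aa and H2-Ab1 had r = 0.929, Cd74 and H2-Eb1 had 0.807, and Cd74 and H2-Aa had 0.482. The lowest among the 5 tested members was 0.409, between H2-DMa and H2-Eb1. With other combinations of their probe sets, H2-Aa and H2-Ab1 had r of 0.669 to 0.854. The dim Ciita probe sets ran from 0.104 with H2-Aa to 0.726 with Cd74. Among 7955 other genes, those most like the mean of the 5 members were Ift172 (r = 0.872, rho = 0.894), Nes (r = 0.868), Kdr (r = 0.865), Kif9 (r = 0.858) and Mttp (r = 0.857). Of the interferon genes Oas3 came highest (0.702), followed by Irf7 (0.645), while Ifit1 had 0.357 and Usp18 -0.649. All these are descriptions over arrays that share cultures, genotype and run, and the KO arrays weigh heavily in them.

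Other cells with class II, and other shifts of the KO cultures, were read from marker lists. Of 9 dendritic cell markers 5 (Ccr7, Cd209a, Itgae, Xcr1 and Zbtb46) lay under the median of all 24 microglia arrays, while Batf3 passed it on 18, Itgax on 10, Clec10a on 4 and Flt3 on 2. The mean of the list was 4.41 to 4.86 over the KO arrays and 4.43 to 5.12 over the WT arrays of run 1. Of 7 B cell markers 4 (Blk, Cd79a, Cr2 and Pax5) did so, while Ighm passed it on 19, Cd79b on 12 and Ms4a1 on 1, with list means of 3.83 to 4.63 in KO and 3.85 to 4.12 in WT of run 1. At 24 h alone the B cell means were 4.21 to 4.41 in KO and 3.96 to 4.02 in WT of run 1, without overlap. The monocyte and granulocyte list was higher in untreated KO (5.18 to 5.33 against 4.65 to 4.82). Of its 4 tested genes Plac8 alone was called at 6 h (4.67 ± 0.65, limma adjusted p = 0.00226) and at 24 h (5.49 ± 0.65, adjusted p = 1.5e-04), while Fn1, S100a8 and Vcan were not. Ccr2, Chil3 and S100a9 lay under the median on all 24 arrays. The fibroblast and endothelial list was 4.40 to 4.80 over the KO arrays and 3.76 to 4.37 over the WT arrays of run 1, with Kdr and Cdh5, both endothelial, called higher in KO at 24 h. Kdr passed the median on 10 of the 24 arrays and Cdh5 on 2. Of the other endothelial markers Pecam1 passed it on 4, while Cldn5 and Tek lay under it on all 24. The T and NK cell list was 4.16 to 4.33 in untreated KO and at most 3.82 in untreated WT of run 1, and 1 of its genes was tested and not called. The oligodendrocyte list (at most 7.11 in KO and 6.58 in WT of run 1) overlapped between KO and WT at each time. The neuron list (3.93 to 5.27 and 3.51 to 4.47) overlapped at 0 h and 6 h. At 24 h the neuron list was 4.30 to 5.25 in KO and 3.51 to 3.91 in WT of run 1, without overlap. The border macrophage list was lower in untreated KO (5.28 to 6.07 against 6.83 to 7.15), with Mrc1 at -4.40 ± 0.67 at 6 h (limma adjusted p = 0.00307). In that list Cd163 and Lyve1 lay under the median on all 24 arrays, and Cbr2 passed it on 1. The mean of 11 microglial identity genes was 8.86 to 10.55 over the microglia arrays and lower in untreated KO than in WT of run 1 (9.44 to 9.88 against 10.29 to 10.55). Of these genes 8 passed the median on all 24 arrays, P2ry12 on 18, Tmem119 on 12 and Gpr34 on 4. In BV-2 cells the list mean was 5.57 to 6.85 on 11 arrays and 8.96 on the doubted one. The part of any of these shifts in the class II levels of the KO cells was not tested.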

How the data were processed

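Per the labels' protocols, RNA was column-purified, biotin-labelled by one-cycle amplification from the 3' end and hybridised to Affymetrix arrays. The submitters' processing notes list affy without a version. How probe sets were summarised and normalized is not given in the sources used here. Values deposited by the authors run from 1.664 to 14.031 and were read as log2 intensities for that reason, since the authors' log base is unstated. They were used unchanged. Precision is limited by the number of arrays, 2 per group. The p-values measure the spread between replicate arrays, pooled over all groups of a fit. Those of KO against WT in run 1 thus also draw on the replicates of run 3. H2-Aa replicates lay 1.69 to 2.23 apart in C61A and 0.60 to 1.22 apart in KO.

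Probe sets were named from GEO's platform annotation: 20393 had 1 gene, 691 several and 1606 were not listed, and only the first were used. A gene was read by its probe set with the highest mean among those that exceeded the array median on 2 or more of its fit's arrays. Tests used limma 3.58.1 in R 4.3.3 (group means, empirical Bayes, Benjamini-Hochberg over all genes tested, adjusted p under 0.05) on 24 microglia arrays (7960 genes), 12 BV-2 arrays (7163) or all 36 (8260). Ciita was read from a fit of all 22690 probe sets. In simulated data for KO against WT at 24 h, 75% of changes of 1.5 on the log2 scale and 96% of changes of 3 were recovered, and 7 of 178 calls were false. Noise was drawn independently for each array with each gene's own spread, so that arrays sharing a culture were not imitated. These shares are averages over genes, and recovery of a single member with a wide spread was not assessed.

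Replicate deviations correlated over time within WT at 0.434 to 0.672 (run 1) and 0.296 to 0.520 (run 3), and within KO at 0.685 to 0.811, so that equal numbers were read as 1 culture in an alternative fit; across genotypes they correlated at -0.46 to -0.044. Across the siRNAs, at equal times, they correlated at 0.322 to 0.506, and a block for the number changed no call of Cd74 there. Members, lists and motifs were chosen with earlier results of these data known. The text names the members, the called genes of the pathway lists, the 5 genes most like the members, and markers. Alternatives were other filters, scaling, priors and probe sets, blocks for culture or replicate number, and leaving out arrays. Python 3.11.15 with matplotlib 3.10.9 drew the figures.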

Additional observations from a re-analysis of the deposited data

How the results depend on the processing

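Most values kept their side of the threshold. With 1 array left out 365 did, 50 of which changed sign without being called, 13 lost a call and 2 gained one. Under the other alternatives 646 did, 7 of which changed sign without being called, 5 lost a call and 10 gained one. No called value changed sign. The counts of members called moved as follows. For KO minus WT at 6 h (1 called), the count was 0 under the stricter filter, where a probe set had to pass the median on at least 0.5 of the arrays, which left 1 member testable, and 2 with culture as a random block (H2-Eb1, H2-Ab1) or with run 1 alone (H2-Eb1, H2-Aa); with 1 array left out it ran from 0 to 1. For KO minus WT at 24 h (1 called), it was 0 with the stricter filter, all probe sets unfiltered, no filter on dim probe sets or an intensity-trended prior, and 2 (H2-Ab1, H2-DMa) with the random block, median centring or renewed quantile normalization; with 1 array left out it ran from 0 to 1. For KO at 24 h minus 6 h (0 called), it was 3 with culture as a fixed replicate block, an alternative added after the data were seen, and 1 (H2-Eb1) with the random block or without the 3 doubted arrays. For BV-2 minus WT (3 and 2 called), the stricter filter gave 0 and 0, renewed quantile normalization gave 1 at 6 h, and leaving out 1 array gave 0 to 4 at 6 h and 1 to 2 at 24 h. With the replicate number as replicate block within a run, the counts were 1 at 6 h and 1 at 24 h for KO minus WT, with the same genes, and no other count moved. That block was not run between runs or between cell kinds, where numbers are nested. The causes of these moves were not tested, beyond the smaller number of genes a stricter filter leaves. Most readings of H2-Aa, H2-Ab1, H2-Eb1 and H2-DMa lie below the array medians, and all readings of Ciita do, which limits what their differences can show.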
